A study of Mus musculus with 8 samples.

Results

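Mitosis and G2/M genes were described in RAW264.7, a mouse cell line of macrophage type that divides in culture, on polyetheretherketone (PEEK), a polymer of bone implants. The 43 genes were taken by symbol from the deposited table of 26848 genes and comprise mitotic cyclins and kinases, spindle checkpoint genes, kinesins, kinetochore genes and genes of chromosome segregation and cytokinesis. All 43 were found in the table and all 43 passed the filter on low counts, as did 16006 genes in all. The tested cells grew on nano/microstructured PEEK (structured 1 to 4) and the control cells on smooth PEEK (structureless surface, smooth 1 to 4), with 4 libraries per surface and 8 in all. Every group consisted of the same cell line, and the labels give no further treatment, culture time or genotype. The labels number most libraries as biological replicates but name no separate cultures, and the p-values therefore reflect the spread among these libraries alone, which may be technical.

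Cells enter mitosis when cyclin-dependent kinase 1, bound to A- and B-type cyclins, is freed of its inhibitory phosphates by CDC25 phosphatases. Polo-like and Aurora kinases then build the spindle, kinetochores bind its microtubules, and the spindle checkpoint holds the anaphase-promoting complex in check until the chromosomes are attached. Most of these genes are transcribed late in the cell cycle under the MuvB complexes with B-MYB and FOXM1, so in an unsynchronised culture their transcripts are commonly read as marks of dividing cells. In bulk samples of this kind, fewer cells in mitosis and less RNA per mitotic cell cannot be told apart.

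The genes were well expressed on both surfaces. Levels are compared between genes in FPKM, the authors' fragments per kilobase of transcript, scaled to depth, given as the mean over 4 libraries. Cdc20, the activator of the anaphase-promoting complex, had 94.2 FPKM on structured and 97.4 FPKM on smooth PEEK, the highest level among the 43. Mki67, which coats mitotic chromosomes and is the usual proliferation marker, had 86.2 and 82.0 FPKM on structured and smooth PEEK, and Top2a, the topoisomerase that untangles sister chromatids, 80.0 and 72.9 FPKM. On smooth PEEK, Top2a and the ubiquitin-conjugating enzyme gene Ube2c (72.8 ± 2.93 FPKM, SD, n = 4) did not differ beyond their spread. Kif14, a kinesin of the midbody, was lowest at 3.99 and 4.13 FPKM on structured and smooth PEEK, below the phosphatase gene Cdc25c at 5.46 and 5.26 FPKM. Between 1790 and 65512 deposited count units stood behind each of these genes in each library, and libraries held 64479829 to 73098735 units in all.

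Promoter sequence, which the choice of the genes by symbol did not use, is shown for 5 of them because they share short elements of cell-cycle promoters. RefSeq (GRCm38.p6) gave promoter windows of 300 bases, 250 before and 50 after the annotated start, for 36 of the 43 genes (39 windows). Ccna2, Foxm1, Incenp, Kif20a, Aurkb, Cdc25c and Tpx2 had no entry. The windows were searched on both strands for the cell-cycle homology region (CHR, TTTGAA or TTCGAA), which MuvB complexes bind, for the CCAAT box bound by NF-Y, and for the forkhead core TGTTTA. Each motif was counted on its own, also where matches of different motifs might overlap. A CHR match stood in 33 of the 39 member windows (84.6%), in 49 of 119 windows of other mitosis genes (41.2%), and in 19.2% of all 32851 windows. CCAAT stood in 76.9% of member windows, 63.0% of windows of other mitosis genes and 37.4% of all windows. The forkhead core stood in 15.4% of member windows, against 10.1% and 13.4%. The 250 bases before the start follow, 5′ to 3′ on the gene's strand, with CHR and CCAAT matches of either strand in capitals (reverse-strand matches read TTCAAA and ATTGG).
Mki67: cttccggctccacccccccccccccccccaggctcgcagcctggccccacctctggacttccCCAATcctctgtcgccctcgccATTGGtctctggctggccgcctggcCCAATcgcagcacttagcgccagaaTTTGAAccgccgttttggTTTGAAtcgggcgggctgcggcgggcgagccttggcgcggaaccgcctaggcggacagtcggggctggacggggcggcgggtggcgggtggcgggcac
Top2a: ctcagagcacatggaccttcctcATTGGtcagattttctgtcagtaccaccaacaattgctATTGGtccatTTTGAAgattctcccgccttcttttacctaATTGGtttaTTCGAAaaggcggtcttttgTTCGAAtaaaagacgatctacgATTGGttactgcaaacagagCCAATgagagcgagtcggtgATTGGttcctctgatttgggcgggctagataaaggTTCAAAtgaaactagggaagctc
Cdk1: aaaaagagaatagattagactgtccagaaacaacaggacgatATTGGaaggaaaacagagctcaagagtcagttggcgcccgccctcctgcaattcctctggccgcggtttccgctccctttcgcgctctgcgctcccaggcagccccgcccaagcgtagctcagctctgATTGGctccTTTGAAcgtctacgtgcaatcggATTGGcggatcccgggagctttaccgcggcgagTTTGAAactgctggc
Cdc20: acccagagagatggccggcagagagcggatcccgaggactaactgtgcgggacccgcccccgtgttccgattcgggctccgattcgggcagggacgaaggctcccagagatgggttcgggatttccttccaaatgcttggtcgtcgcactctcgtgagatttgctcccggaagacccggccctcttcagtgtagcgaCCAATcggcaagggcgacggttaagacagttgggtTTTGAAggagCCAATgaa
Plk1: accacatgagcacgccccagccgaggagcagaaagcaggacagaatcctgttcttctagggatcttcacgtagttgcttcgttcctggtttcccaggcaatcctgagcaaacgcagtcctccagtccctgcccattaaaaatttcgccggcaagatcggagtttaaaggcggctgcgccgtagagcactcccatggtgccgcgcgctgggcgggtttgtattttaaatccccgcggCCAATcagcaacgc
These stretches lie at chr7:135716380-135716629 for Mki67 (minus strand), chr11:99024190-99024439 for Top2a (minus), chr10:69352913-69353162 for Cdk1 (minus), chr4:118437344-118437593 for Cdc20 (minus) and chr7:122159185-122159434 for Plk1 (plus). Positions below count the first matched base from the start. Top2a held 4 CHR matches, the nearest at -23, among 6 CCAAT boxes. Cdk1 held CHR matches at -71 and -15, Cdc20 at -18 and Mki67 at -116 and -98, and in Cdc20 the match stood between CCAAT boxes at -53 and -8. The stretch of Plk1 held a CCAAT box at -14 and no CHR, its match lying after the start at position 31. Over the 36 genes, 27 had a CHR match within 60 bases of an annotated start, and 19 had 1 after the start. A match is a run of letters and not a measured binding site.

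**Figure D1:**
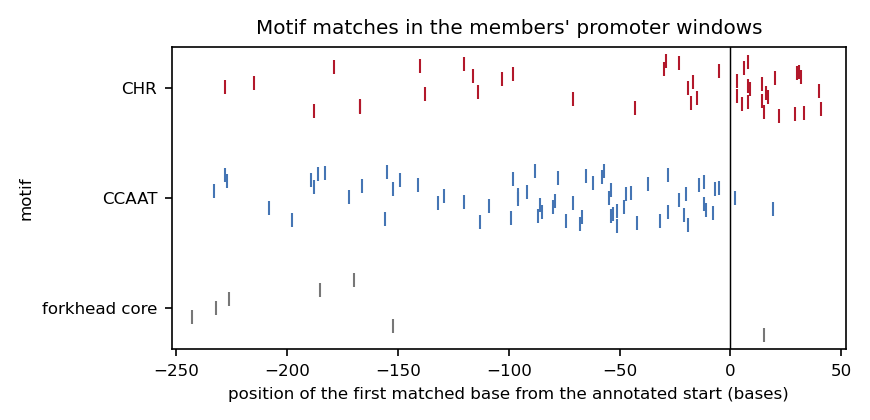
Positions of matches to the CHR, CCAAT and forkhead core motifs in the 39 promoter windows of 36 mitosis and G2/M genes, in bases from the annotated start (vertical line). Each tick is a match, spread up and down within its row for visibility. CHR matches gather around the start, and CCAAT boxes lie mostly before it.

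The question of the comparison was how a structured PEEK surface, against a smooth PEEK surface, changed the genes that carry cells through mitosis. On structured PEEK, 2 of the 43 genes rose, Bub3 and Kif20a, and 3 fell, Foxm1, Plk1 and Incenp, by 0.15 to 0.20 on the log2 scale (edgeR quasi-likelihood test, two-sided, Benjamini-Hochberg adjustment over 16006 genes). This is 4.65% of the members rising and 6.98% falling, where 1.01% of all genes tested rose and 2.75% fell (3.75% either way). Genes that fell made up 73.2% of all calls, 61.4% of those of DESeq2 and 54.2% of those after removal of a trend on GC content and transcript length. The other 38 did not pass. Of the 43, 32 had positive and 11 negative log2 fold changes (74.4% positive, against 51.2% of all genes tested). The median log2 fold change was 0.07, a 1.05-fold difference, beside 0.0056 over all genes. Absolute log2 fold changes had a median of 0.09 among the members and 0.12 among all genes.

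The libraries of the surfaces separated more often than the adjusted test called. All structured libraries lay above all smooth libraries for 13 of the 43 genes (30.2%), where 5.19% of all genes tested did so. All structured libraries lay below all smooth libraries for 4 genes (9.30%), where 7.03% of all genes did so. An unadjusted edgeR p under 0.05 was reached by 12 genes with positive values (27.9%, against 8.14% of all genes) and 6 with negative values, where 10.6% of all genes did so.

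**Figure D2:**
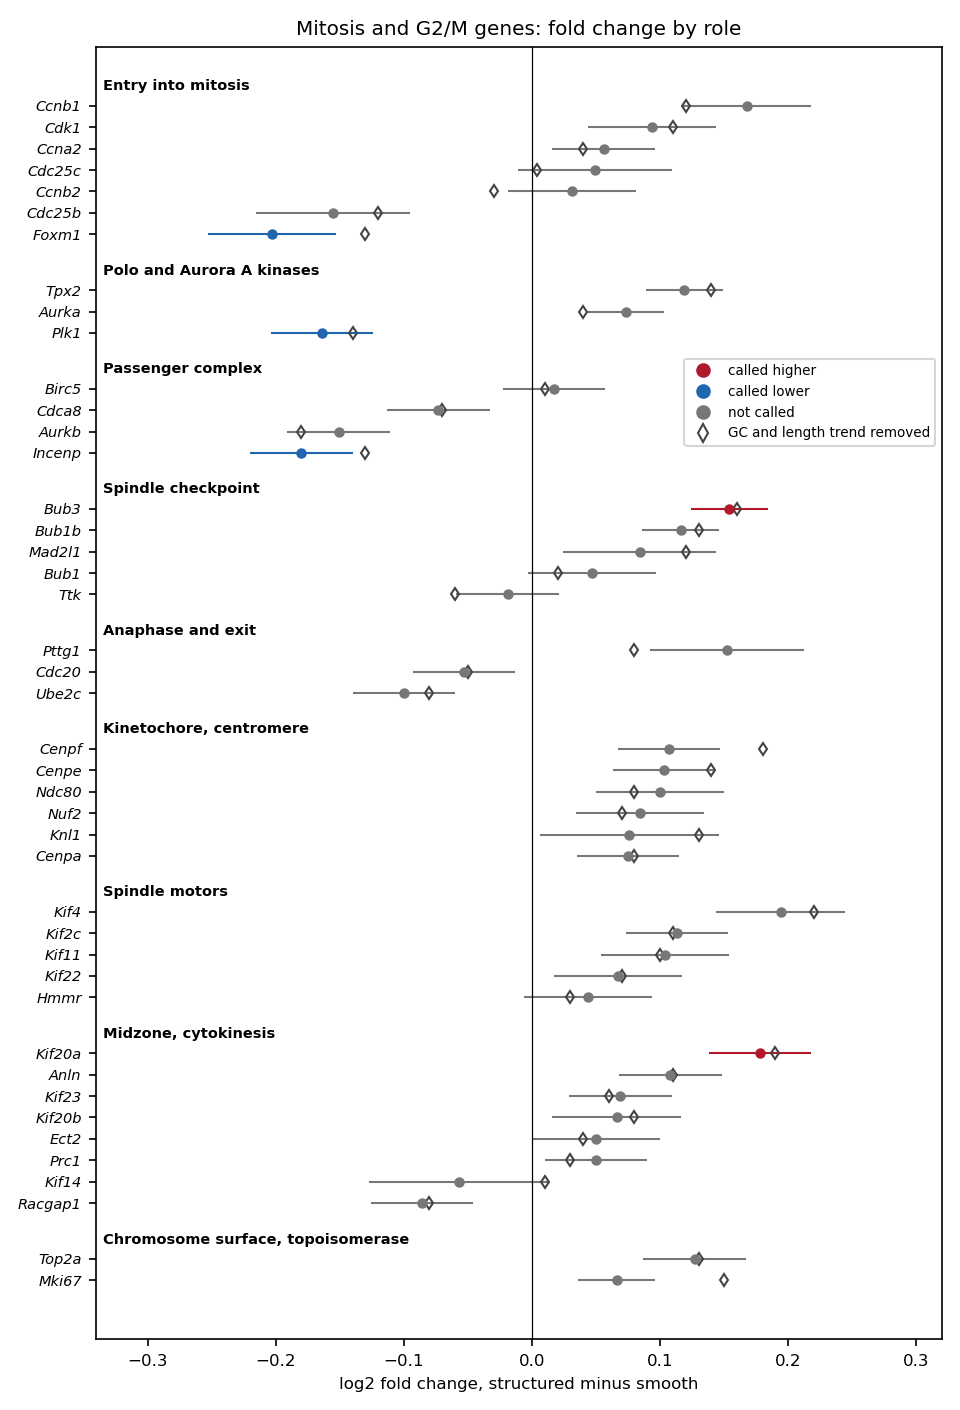
Log2 fold change (x axis, structured minus smooth; filled circles with bars of 1 SE from edgeR, n = 4 per surface) of the 43 genes, grouped by role, with called genes in red (higher) or blue (lower). Open diamonds give the values with the trend on GC content and transcript length removed. Values run from -0.20 for Foxm1 to 0.19 for Kif4.

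Bub3, a WD-repeat protein that brings the checkpoint kinase BUB1 and its partner BUBR1 to kinetochores, had 242, 246, 242 and 239 CPM in structured 1 to 4, against 210.0, 219, 217 and 224 CPM in smooth 1 to 4 (CPM, counts per 1e6 of the scaled library). Every structured library stood above every smooth one. The log2 fold change was 0.15 ± 0.03 (SE, n = 4 per group; edgeR BH-adjusted p = 0.0329). Kif20a, the kinesin that carries passenger proteins and Polo kinase to the spindle midzone, had 252, 256, 245 and 244 CPM in structured 1 to 4, against 207, 221, 224 and 229 CPM in smooth 1 to 4. Its groups did not overlap either, and the log2 fold change was 0.18 ± 0.04 (edgeR BH-adjusted p = 0.0336). The annotated gene of Kif20a overlaps Cdc23 of the opposite strand over 2327 bases. The libraries kept the strand of the RNA by the labels' protocol, but whether counting used it is not stated there, so reads in the overlap cannot be assigned with certainty. Cdc23, which encodes a subunit of the anaphase-promoting complex, had a log2 fold change of 0.10 ± 0.04 (edgeR BH-adjusted p = 0.208).

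Foxm1, the forkhead factor that drives many G2/M genes, had 154, 151, 149.9 and 139 CPM in structured 1 to 4, against 162, 166, 183 and 172 CPM in smooth 1 to 4. All structured libraries lay below all smooth ones, with a log2 fold change of -0.20 ± 0.05 (SE, n = 4 per group; edgeR BH-adjusted p = 0.0403). Plk1, the Polo-like kinase of mitotic entry and spindle assembly, had 133, 134, 141 and 137 CPM in structured 1 to 4, against 146, 153, 159 and 153 CPM in smooth 1 to 4. It fell by 0.16 on the log2 scale (SE 0.04; edgeR BH-adjusted p = 0.0402), again without overlap. Incenp, the scaffold that activates Aurora B, had 227, 222, 233 and 234 CPM in structured 1 to 4, against 272, 269, 241 and 255 CPM in smooth 1 to 4. The smooth libraries were the more scattered, and the log2 fold change was -0.18 ± 0.04 (edgeR BH-adjusted p = 0.0480).

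The called genes lie at chromosome 7, 131560222 to 131571895 (Bub3, ENSMUSG00000066979), chromosome 18, 34624613 to 34633277 (Kif20a, ENSMUSG00000003779), chromosome 6, 128362967 to 128376146 (Foxm1, ENSMUSG00000001517), chromosome 7, 122159439 to 122169873 (Plk1, ENSMUSG00000030867) and chromosome 19, 9872296 to 9899551 (Incenp, ENSMUSG00000024660). Positions are as the table gives them and were identical in GENCODE M21 (GRCm38) for 42 of the 43 genes. Each value covers a gene's annotated transcript as a whole.

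These calls were not kept in every fit without 1 library, nor under every processing. The part of the smaller number of samples in this was not tested. Fits without 1 library hold fewer samples, and Bub3 passed in none of the 8, with log2 fold changes of 0.14 to 0.17 and adjusted p up to 0.108. Kif20a passed only without structured 3 (as did Ccnb1, at 0.20 with adjusted p = 0.0481), Foxm1 only without smooth 1, Incenp only without smooth 3, and Plk1 without structured 3 or smooth 1, with adjusted p up to 0.113 for Kif20a, 0.120 for Foxm1, 0.150 for Incenp and 0.126 for Plk1. DESeq2 called 9 members higher (20.9%, against 3.45% of all genes) and 4 lower (9.30%, against 5.50%), adding Ccnb1, Kif4, Tpx2, Bub1b, Top2a, Anln and Cenpf to those that rose and Aurkb to those that fell.

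Base composition moved with the direction of these genes. The longest annotated transcript held 54.6% G and C for Foxm1, 56.0% for Plk1 and 54.7% for Incenp, against 47.6% for Bub3 and 48.4% for Kif20a. The median was 46.4% over the 43 genes, 49.5% over all genes tested, 53.9% over all genes that fell and 49.1% over all that rose. Across the 43 genes, which are not independent replicates, Pearson's r of log2 fold change and GC content was -0.57, and it was -0.05 over the 15988 tested genes with a GC value. With the trend on GC content and transcript length removed over all genes, 7 members passed as higher (16.3%, against 1.18% of all genes) and 1 as lower (2.33%, against 1.40%). The higher ones were Bub3, Kif20a, Kif4, Tpx2, Top2a, Mki67 and Cenpf, and the lower was Aurkb. Foxm1 went to -0.13 (edgeR BH-adjusted p = 0.163, the highest of its alternatives, which began at 0.00113), Plk1 to -0.14 (0.0914, within 0.00246 to 0.126) and Incenp to -0.13 (0.0988, within 0.00203 to 0.153). The GC part of the difference was not tested beyond this removal, after which r over the 43 genes was -0.53.

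**Figure D3:**
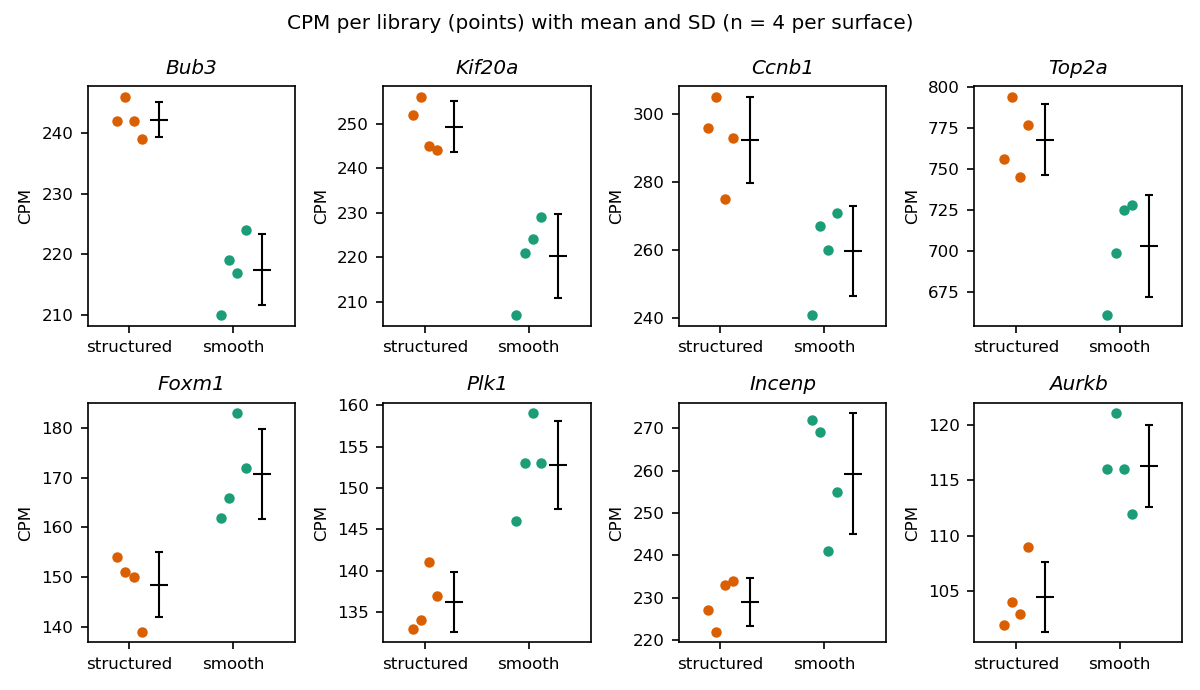
CPM (y axis, each panel with its own range that does not start at 0) of 8 mitosis genes in the 4 structured and 4 smooth libraries, with the mean and SD beside the points. In Bub3, Kif20a, Ccnb1 and Top2a every structured library lies above every smooth one, and in Foxm1, Plk1, Incenp and Aurkb every structured library lies below.

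Among genes of entry into mitosis, Foxm1 fell and the other 6 of 7 did not pass (group median 0.05). Ccnb1, cyclin B1, had 296, 305, 275 and 293 CPM in structured 1 to 4, against 241, 267, 260.2 and 271 CPM in smooth 1 to 4. The groups did not overlap, and the log2 fold change was 0.17 ± 0.05 (SE, n = 4 per group; edgeR BH-adjusted p = 0.0702). A pseudogene, Ccnb1-ps, is listed at 2.64 raw CPM, and how reads common to both were counted is not given in the sources used here. Cdk1, the kinase that cyclin B1 activates, had 161, 171, 147 and 158 CPM in structured 1 to 4, against 143, 146, 151 and 157 CPM in smooth 1 to 4. These groups overlapped, at 0.09 ± 0.05 (adjusted p = 0.348). Ccna2, cyclin A2, had 280.1, 277, 279 and 285 CPM in structured 1 to 4, against 251, 272, 278 and 277 CPM in smooth 1 to 4. Its lowest library, smooth 1, stood apart from the rest, and the log2 fold change was 0.06 ± 0.04 (adjusted p = 0.507). The Ccna2 gene overlaps Exosc9 of the opposite strand over 863 bases.

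The CDC25 phosphatases pointed in different directions without passing. Cdc25b, which starts CDK1 activation at the centrosome, had 52.6, 54.7, 63.4 and 60.1 CPM in structured 1 to 4, against 62.4, 66.0, 66.1 and 62.5 CPM in smooth 1 to 4. Structured 1 and 2 were low and structured 3 lay within the smooth range (log2 fold change -0.16 ± 0.06; edgeR BH-adjusted p = 0.185). Cdc25c, the paralogue that acts on nuclear CDK1, averaged 28.7 ± 2.10 CPM on structured and 27.7 ± 1.16 CPM on smooth PEEK (SD, n = 4 per group; 0.05 ± 0.06, SE). Cyclin B2 (Ccnb2) averaged 117 ± 2.47 CPM on structured and 115 ± 6.82 CPM on smooth PEEK. Its log2 fold change of 0.03 turned to -0.03 with the GC and length trend removed.

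Of the kinases that build the spindle, Plk1 fell and the other 2 of 3 did not pass. Aurka, the centrosomal kinase, had 158, 155, 161 and 153 CPM in structured 1 to 4, against 151, 149, 152 and 144 CPM in smooth 1 to 4. The groups came close without overlapping, at 0.07 ± 0.03 (SE, n = 4 per group; edgeR BH-adjusted p = 0.284). Tpx2, which activates Aurora A on microtubules, had 299, 304, 296 and 296 CPM in structured 1 to 4, against 263, 278, 279 and 279.7 CPM in smooth 1 to 4. The structured libraries were tightly grouped above the smooth ones, at 0.12 ± 0.03 (adjusted p = 0.0782, and 0.0476 once the trend was removed; 0.00566 to 0.227 over the alternatives).

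The chromosomal passenger complex, which corrects faulty attachments and later directs cytokinesis, had a negative median (-0.11). So had the 3 targets and partners of the anaphase-promoting complex (-0.05), while the other role groups had positive medians. Within the passenger complex Incenp fell, and the other 3 of 4 did not pass. Aurkb, its kinase, had 102, 104, 103 and 109 CPM in structured 1 to 4, against 116, 121, 116 and 112 CPM in smooth 1 to 4. The groups did not overlap, and the log2 fold change was -0.15 ± 0.04 (SE, n = 4 per group; edgeR BH-adjusted p = 0.0541, and 0.0267 at -0.18 after removal of that trend; 0.00886 to 0.149 over the alternatives). Cdca8, which encodes borealin, had 111, 113, 119 and 114 CPM in structured 1 to 4, against 117, 128, 113 and 122 CPM in smooth 1 to 4, with overlap (-0.07 ± 0.04; adjusted p = 0.432). Birc5, survivin, averaged 93.1 ± 0.805 CPM on structured and 92.1 ± 4.57 CPM on smooth PEEK (SD), with a log2 fold change of 0.02.

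In the spindle checkpoint, Bub3 rose and the other 4 of 5 did not pass (group median 0.08). Bub1b, which encodes BUBR1, an inhibitor of the anaphase-promoting complex, had 312, 302, 289 and 301 CPM in structured 1 to 4, against 273, 278, 281 and 279.5 CPM in smooth 1 to 4. All structured libraries were higher, at 0.12 ± 0.03 (SE, n = 4 per group; edgeR BH-adjusted p = 0.0890). Mad2l1, whose product MAD2 binds CDC20, averaged 115 ± 3.78 CPM on structured and 108 ± 9.10 CPM on smooth PEEK (SD), and Bub1, the kinase that marks centromeres, 186 ± 3.23 and 180.2 ± 12.3 CPM. Ttk, the MPS1 kinase at the head of the checkpoint, averaged 70.4 ± 2.19 CPM on structured and 71.3 ± 1.59 CPM on smooth PEEK. Groups overlapped in all 3 of these genes.

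The targets and partners of the anaphase-promoting complex did not pass: edgeR and DESeq2 each called 0 of 3, with 2 at an unadjusted edgeR p under 0.05. Cdc20 had 180.2, 197, 190.0 and 183 CPM in structured 1 to 4, against 203, 198, 189 and 188 CPM in smooth 1 to 4, with groups that overlapped (log2 fold change -0.05 ± 0.04, SE, n = 4 per group; edgeR BH-adjusted p = 0.576). Ube2c, which adds ubiquitin for the complex, had 181, 184, 198 and 192 CPM in structured 1 to 4, against 209.7, 203, 196 and 200.3 CPM in smooth 1 to 4 (-0.10 ± 0.04; adjusted p = 0.200). Structured 3 lay within the smooth range. Pttg1, securin, which holds separase inactive until anaphase, averaged 53.2 ± 3.41 CPM on structured and 47.9 ± 2.55 CPM on smooth PEEK (SD). Its structured libraries all lay above the smooth ones, at 0.15 ± 0.06 (SE; adjusted p = 0.180).

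The 6 kinetochore and centromere genes all had positive values, from 0.07 to 0.11 with a median of 0.09, and none passed by edgeR. Of them, 2 had an unadjusted edgeR p under 0.05, and DESeq2 called 1, Cenpf. Cenpe, the kinesin that brings chromosomes to the spindle equator, averaged 158 ± 4.58 CPM on structured and 147 ± 4.09 CPM on smooth PEEK (SD, n = 4 per group; edgeR BH-adjusted p = 0.148). Cenpf, a large kinetochore protein of G2 and mitosis, averaged 151 ± 4.35 and 140.2 ± 4.32 CPM on structured and smooth PEEK (adjusted p = 0.138, and 0.0449 at 0.18 after removal of that trend). In both, all structured libraries stood above all smooth ones. Groups overlapped in Ndc80, Nuf2 and Knl1, of the microtubule-binding network, and in Cenpa, the centromeric histone.

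Motor proteins of the spindle had a median log2 fold change of 0.10, with 5 of 5 positive and none past the adjusted threshold by edgeR (2 at an unadjusted p under 0.05, and Kif4 called by DESeq2). Kif4, a chromosome-bound kinesin on the X chromosome, had 79.9, 74.5, 81.3 and 74.7 CPM in structured 1 to 4, against 64.5, 64.4, 71.6 and 70.9 CPM in smooth 1 to 4. Every structured library was higher, and its log2 fold change of 0.19 ± 0.05 was the highest of the 43 (SE, n = 4 per group; edgeR BH-adjusted p = 0.0652, and 0.0360 with that trend removed; 0.00701 to 0.165 over the alternatives). Kif4 overlaps Pdzd11 of the opposite strand over 832 bases. Kif2c, which takes microtubule ends apart, averaged 116 ± 5.55 CPM on structured and 107 ± 1.81 CPM on smooth PEEK (SD; adjusted p = 0.156), without overlap. Kif11, the motor that pushes spindle poles apart, Kif22, which moves chromosome arms, and Hmmr, a spindle-pole protein, had values of 0.10, 0.07 and 0.04 with overlapping groups.

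At the midzone and in cytokinesis, Kif20a rose and the other 7 of 8 did not pass (group median 0.06). Anln, anillin of the contractile ring, had 260.4 to 268 CPM in structured 1 to 4, against 236, 242, 254 and 252 CPM in smooth 1 to 4. The groups did not overlap (log2 fold change 0.11 ± 0.04, SE, n = 4 per group; edgeR BH-adjusted p = 0.121). Racgap1, the GTPase-activating subunit of centralspindlin, had 167, 164, 177 and 173 CPM in structured 1 to 4, against 169.9, 191, 182 and 181 CPM in smooth 1 to 4, with overlap (-0.09 ± 0.04; adjusted p = 0.319). Its partner kinesin Kif23 averaged 243 CPM on structured and 231 CPM on smooth PEEK, at a log2 fold change of 0.07 ± 0.04, so the subunits of 1 complex had opposite signs, neither past the test. Prc1, which bundles midzone microtubules, Ect2, which activates RHOA, and Kif20b had log2 fold changes of 0.05, 0.05 and 0.07 with overlapping groups. The Prc1 gene lies over Rccd1 of the opposite strand for 21810 bases. Kif14 had -0.06 ± 0.07, and 0.01 after removal of that trend.

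Of the general proliferation markers, neither passed by edgeR, and DESeq2 called Top2a. Mki67 had 945, 939, 896 and 917 CPM in structured 1 to 4, against 861, 875, 912 and 884 CPM in smooth 1 to 4. Structured 3 lay within the smooth range, and the log2 fold change was 0.07 ± 0.03 (SE, n = 4 per group; edgeR BH-adjusted p = 0.298). With the GC and length trend removed it was 0.15 (adjusted p = 0.0279, where its alternatives ran to 0.522). Top2a had 756, 794, 745 and 777 CPM in structured 1 to 4, against 661, 699, 725 and 728 CPM in smooth 1 to 4, without overlap (0.13 ± 0.04; adjusted p = 0.0964, and 0.0480 with the trend removed; 0.00945 to 0.285 over the alternatives).

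**Figure D4:**
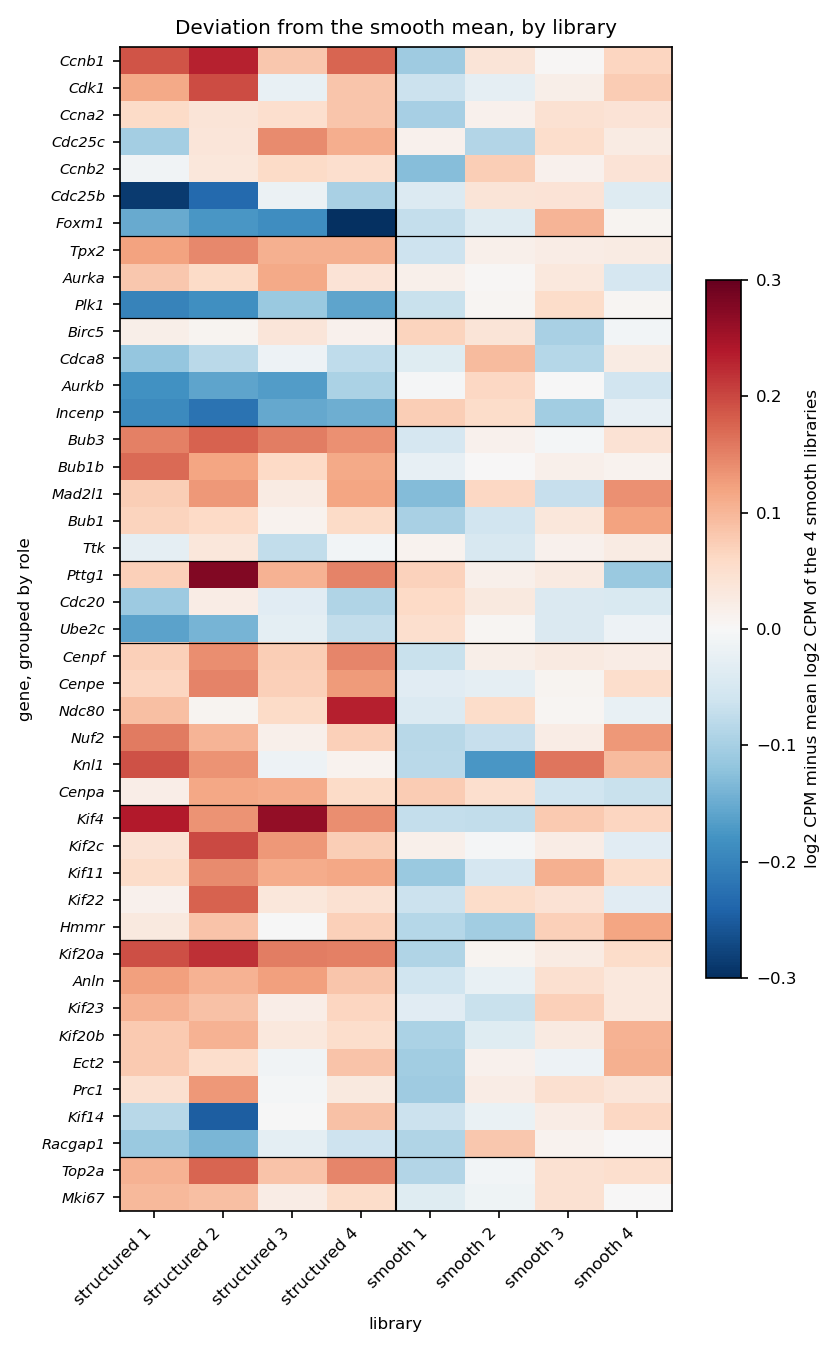
Log2 CPM of each of the 43 genes (rows, grouped by role) in each library (columns) minus the mean log2 CPM of the 4 smooth libraries; red is higher and blue lower, and the colour scale ends at 0.3. Smooth 1 is pale blue for most genes. Foxm1, Plk1, Aurkb and Incenp are blue in all structured libraries, and Cdc25b, Cdca8, Ube2c and Racgap1 also lie below the smooth mean in all of them.

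Smooth 1 stood lowest of the 8 libraries for 22 of the 43 genes. The same count over all genes tested was not made. Smooth 1 was also lowest of the 8 in summed macrophage markers (6231 CPM). It was highest in summed CDK inhibitors and antiproliferative genes (739 CPM). Taken over the 43 genes, the median deviation from the smooth mean (log2 CPM) was 0.06, 0.09, 0.03 and 0.07 in structured 1 to 4, against -0.06, 0.01, 0.02 and 0.03 in smooth 1 to 4. Structured 3, the nearest to smooth 2 to 4, equalled smooth 4 in this median at 2 decimals. Without smooth 1 the median log2 fold change of the 43 genes was 0.05, with 0 genes called higher (12 at an unadjusted edgeR p under 0.05) and 2 lower. Smooth 1 also held the highest summed level of 10 hepatocyte markers among the smooth libraries, 237 CPM against 53.1 to 78.7 CPM in smooth 2 to 4, while structured 1 to 4 held 104, 118, 195 and 355 CPM. Without smooth 1 and structured 4, which held the most on each surface, the median was 0.04 and 0 members passed by edgeR, with 10 positive and 6 negative at an unadjusted p under 0.05. The part of the liver transcripts in the result was not tested further.

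Several genes listed as markers of other cells differed between surfaces or libraries. Of 12 neutrophil markers 11 are in the table, and their sum was 70.1 to 110.2 CPM on structured and 59.4 to 69.8 CPM on smooth PEEK, of which Mmp9 made 49.0 to 54.1 CPM on structured and at least 53.3 CPM on smooth PEEK, with 5 markers at 0 in every smooth library. The granule collagenase gene Mmp8 had 0.750 CPM in structured 1 and 12.2 and 12.8 CPM in structured 2 and 4. Structured 3 lay close below structured 2 in Mmp8. Structured 1 was low in Mmp8 but not in every marker of the list. Its Lcn2, another neutrophil marker, was 11.1 CPM, against 15.7 to 17.4 CPM in structured 2 to 4 and at most 1.64 CPM on smooth PEEK. Its Mmp9 lay within the range of structured 2 to 4. The median deviation of structured 1 over the mitosis genes was 0.06, against 0.03 to 0.09 in structured 2 to 4. Markers of myeloid precursors, 6 of 7 in the table, summed to 0.372 to 0.682 CPM on structured and 0.0620 to 0.240 CPM on smooth PEEK. Skeletal muscle markers (9 of 9) summed to 15.2 to 21.1 CPM on structured and 18.3 to 58.9 CPM on smooth PEEK, highest in smooth 1. Of these sums Tnni2 made 12.9 to 14.6 CPM on structured and 9.72 to 15.7 CPM on smooth PEEK. By edgeR 3 of the 9 fell, Ckm, Tnnc2 and Atp2a1, where 2.75% of all genes tested did. The median log2 fold change of the 9 was -3.44, with 1 positive value. Macrophage markers (10 of 10) summed to 6577 to 6731 CPM on structured and 6231 to 6675 CPM on smooth PEEK, with Csf1r, Lyz2 and Cd68 high and Mertk at 0.269 CPM or less in every library. Whether other cells were present, and their part in the mitosis values, was not tested beyond the values given.

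Other genes of mitosis, taken from lists that were chosen with earlier results of these data known, were set beside the 43. Of 124 tested, 3 rose and 2 fell, where 1.01% of all genes tested rose and 2.75% fell (3.75% either way). Of these 124, 85 had positive values, where 51.2% of all genes did, and the median log2 fold change was 0.05. Cdc26, a small subunit of the anaphase-promoting complex, had 39.1, 40.8, 37.8 and 36.9 CPM in structured 1 to 4, against 32.1, 34.2, 31.6 and 30.7 CPM in smooth 1 to 4, and rose by 0.27 ± 0.05 (SE, n = 4 per group; edgeR BH-adjusted p = 0.0234). Fzr1, which encodes CDH1, the activator of that complex after anaphase, had 80.7, 81.9, 81.0 and 81.4 CPM in structured 1 to 4, against 86.6, 92.6, 91.7 and 90.6 CPM in smooth 1 to 4, and fell by 0.15 on the log2 scale (SE 0.04; adjusted p = 0.0447, and 0.275 at -0.09 after that trend was taken out). They were the only called members among 17 genes of the complex, whose median was 0.07.

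Among 22 other spindle and centrosome genes, Spag5, which encodes astrin, had a log2 fold change of 0.17 ± 0.04 (SE, n = 4 per group; edgeR BH-adjusted p = 0.0270) and Sass6, of the centriole cartwheel, 0.24 ± 0.06 (adjusted p = 0.0433). Both rose, and 17 of the 22 had positive values, with 10 at an unadjusted edgeR p under 0.05. DESeq2 called 4 of the 22 higher and 1 lower. By edgeR none passed among 8 condensin, 14 cohesin and separase, 30 further kinetochore and centromere and 20 G2/M entry genes. At an unadjusted edgeR p under 0.05 stood 4, 4, 9 and 3 of them, against 18.7% of all genes tested. DESeq2 called 2 condensin genes higher and 2 lower, and 3 cohesin and separase genes higher. It called 1 kinetochore and centromere gene higher, and 1 G2/M entry gene higher and 1 lower. Of all genes it called 3.45% higher and 5.50% lower. The most abundant genes of these 4 lists, Smc4 (0.06), Rad21 (0.03), Zw10 (0.04) and Cks1b (0.10), had edgeR BH-adjusted p of 0.552, 0.769, 0.596 and 0.247. Of the 30 kinetochore and centromere genes 27 had positive values, with a median of 0.09. Among the G2/M entry genes, which include the MuvB subunits, 9 of 20 did, with a median of -0.0029. Of 13 CDK inhibitors and antiproliferative genes only Gadd45a, a stress gene that can restrain CDK1, passed. It had 1.86, 1.82, 1.68 and 1.41 CPM in structured 1 to 4, against 3.56, 3.76, 2.67 and 2.50 CPM in smooth 1 to 4, a log2 fold change of -0.88 ± 0.19 (adjusted p = 0.0329) at a low level.

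Each of these 5 calls was lost without some library. Cdc26 lost it without structured 1, 2 or 4 or smooth 3 or 4, Spag5 without these or smooth 2, Fzr1 without any but smooth 1, Sass6 without any but structured 3, and Gadd45a without any but smooth 4. The highest adjusted p without 1 library was 0.0714 for Cdc26, 0.118 for Fzr1, 0.0779 for Spag5, 0.124 for Sass6 and 0.0979 for Gadd45a.

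**Figure D5:**
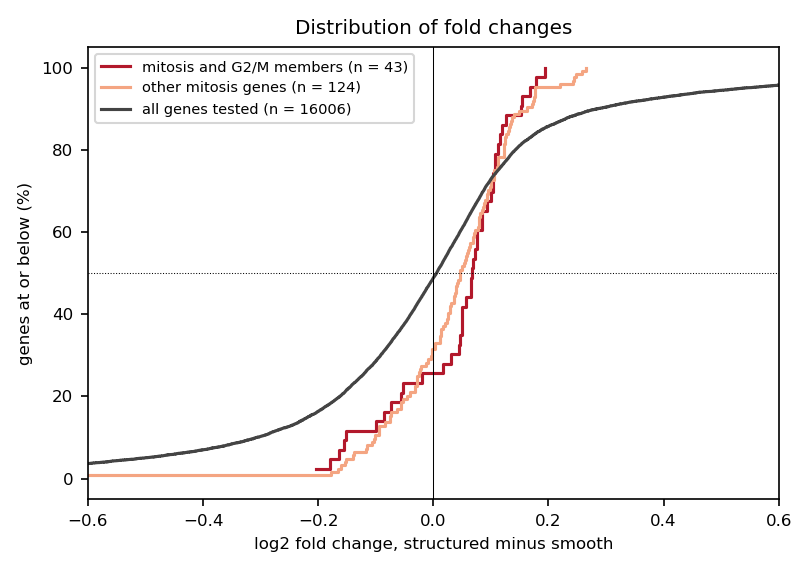
Cumulative share of genes (y axis, percent) at or below each log2 fold change (x axis, structured minus smooth) for 43 mitosis and G2/M members, 124 other mitosis genes and all 16006 genes tested. The x axis ends at -0.6 and 0.6, which leaves out the extremes of all genes and 1 other mitosis gene, Gadd45a at -0.88. Both mitosis curves cross 50% to the right of 0, at 0.07 and 0.05, and are steeper than the curve of all genes.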

How the data were processed

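Messenger RNA of RAW264.7 cells was sequenced as read pairs in 4 libraries per surface, numbered by library name. The submitters' processing notes name cutadapt 1.9 and HISAT2 2.2.1, with no step or role. The adapters carried molecular identifiers, per the labels' protocols. Whether these were used in counting, the counter, its strand setting, the annotation and the build: not given in the sources used here. Each table has expected counts deposited by the authors as whole numbers, and FPKM values, normalized to length and depth per the file headers. Low counts pile up at multiples of 4 (32.1% of values from 1 to 40, against 25.3% from 400 to 4000), so a count unit may not be 1 fragment.

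The members and lists were chosen with earlier results of these data known. edgeR 4.0.16 under R 4.3.3 tested structured minus smooth over all genes (filterByExpr, minimum count 10, TMM scaling, quasi-likelihood test, Benjamini-Hochberg threshold 0.05). The fit was also run on simulated counts with the same dispersion for all genes, a simpler setting than these libraries. An SE is the log2 fold change divided by the square root of F. CPM are counts per 1e6 of the TMM-scaled library. Alternatives were DESeq2 1.42.0, limma 3.58.1 (voom, and log2 FPKM with pseudocounts of 0.5, 0.1 and 1), other scalings and filters, counts divided by 4, a replicate block, removal of the GC and length trend (GENCODE M21) and each library left out. Leaving out smooth 1 with structured 4 was chosen after seeing the data. Named were called members, the 8 of smallest p in each direction, and 10 fixed genes, with up to 4 called genes per further list, or its most abundant. The remaining members and Cdc23 were described after their values were seen. Figures were drawn with matplotlib 3.10.9. Libraries totalled 64479829 to 73098735 count units, and SDs are the spread between the libraries of a surface.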

Additional observations from a re-analysis of the deposited data

Results flagged for a closer look

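In 2 of 86 groups of 4 libraries (43 genes on each surface; 2.33%), a library stood farther from the others than Dixon's 95% limit allows, where chance gives about 1 in 20. Both were smooth 1. Tpx2 had 263 CPM there, against 278 to 279.7 CPM in the other smooth libraries. Cenpf had 134 CPM there, against 142 to 143 CPM in the other smooth libraries. In both genes the structured libraries lay above every smooth library.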

How the results depend on the processing

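Of all genes tested, 601 were called. DESeq2 called 1433, limma on log2 FPKM 191, 242 and 187 with pseudocounts of 0.5, 0.1 and 1, edgeR without a filter 189, and the fit without smooth 1 and structured 4 together 137. With each library left out in turn, 88 to 597 were called, fewest without structured 4 (88) and structured 2 (125). Genes that fell made up 73.2% of calls, but 61.4% with DESeq2 and 54.2% after the GC and length trend was removed.

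Of the 43 members 2 were called higher, against 9 with DESeq2, 7 with the trend removed and 0 without a filter, with the replicate block or without both libraries with most liver transcripts. The 3 called lower became 1 with the trend removed, with the replicate block or with limma at a pseudocount of 0.1, and 0 with limma at 0.5 or 1, without a filter or without both libraries. At an unadjusted p under 0.05 stood 15 positive and 6 negative members without a filter, 13 and 5 with the block, and 10 and 6 without both libraries (edgeR), and 15 and 6 with limma at 0.5 or 1. With each library left out in turn, 0 to 2 were higher and 0 to 2 lower. The 5 other mitosis genes called became 18 with DESeq2, 8 with the trend removed, 3 with the replicate block, 2 with limma at 0.5 or 1 or without a filter, 0 without both libraries (29 at an unadjusted edgeR p under 0.05), and 0 to 5 with each library left out. The median log2 fold change of the members ran from 0.04 to 0.08 over all alternatives. Incenp also missed the threshold with DESeq2's size factors and with upper quartile scaling. Of the 43 members 40 kept their sign under every alternative, the exceptions being Birc5, Ccnb2 and Kif14. Fewer samples enter fits without libraries, and the part of this in their calls was not tested. The cause of the other shifts was not tested either.

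No pairing by replicate number was seen in the values. Deviations from the group means correlated at -0.0621, 0.0761, -0.00448 and -0.159 between same-numbered libraries, and 0 of 4 structured libraries correlated best with their own number. This does not settle whether libraries were paired by design, which the labels do not state. The replicate block left 499 genes called, and Plk1 as the 1 member.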

Other observations

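Most of the 43 mitosis genes varied less between structured than between smooth libraries. The coefficient of variation of CPM was lower on structured PEEK for 30 of the 43 genes, with a median of 3.04% on structured and 4.34% on smooth PEEK. It ran from 0.864% to 9.73% on structured and from 1.25% to 10.7% on smooth PEEK. Smooth 1 was the lowest of the 4 smooth libraries for 27 of the 43 genes. The same counts over all genes tested were not made, so the lower spread cannot be called particular to the mitosis genes. The difference in spread was not tested.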
